A study of Mus musculus with 6 samples.

Results

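The genes described here are 10 genes of megakaryocytes and platelets, *Vwf*, *Pf4*, *Itga2b*, *Itgb3*, *Gp1bb*, *Gp9*, *Selp*, *Clu*, *Fli1* and *Nfe2*, measured in haematopoietic stem cells (HSCs). They were taken by symbol from a table of 46959 gene rows, in which each of the 10 had 1 row. RNA was sequenced from 2000 sorted bone marrow HSCs per library, in 3 libraries labelled control and 3 labelled MaeaCsf1r-Cre, from littermate mice 8 weeks old, with a pair of mice pooled in each replicate. In MaeaCsf1r-Cre mice the floxed *Maea* gene, which codes for a RING subunit of an E3 ubiquitin ligase complex, is deleted by a Cre driven by the *Csf1r* promoter, on a C57BL/6 background. *Csf1r* codes for a growth factor receptor of the macrophage lineage. The authors describe deletion of *Maea* in macrophages of these animals as well, with defects of bone marrow macrophages. The labels do not give the alleles of the control animals. The comparison asks whether the transcriptional programme shared by HSCs and megakaryocytes differed when *Maea* was deleted.

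Megakaryocytes are the bone marrow cells that shed platelets, and part of their programme is already transcribed in HSCs. Some HSCs express von Willebrand factor and are biased towards platelet production, and the cytokine thrombopoietin maintains both HSCs and megakaryocytes. Platelets carry adhesion receptors, among them the integrin αIIbβ3 (*Itga2b* and *Itgb3*), which binds fibrinogen, and the GPIb-IX-V complex (*Gp1bb* and *Gp9* are subunits), which binds von Willebrand factor. Their alpha granules hold Vwf, the chemokine platelet factor 4 (*Pf4*) and clusterin (*Clu*), with P-selectin (*Selp*) in the granule membrane. Fli1, an ETS factor, and Nfe2, the p45 subunit of NF-E2, are transcription factors of the lineage.

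The promoter sequences of 3 of the genes are printed below. Of the promoters available, they were the ones free of annotated exons in the printed stretch. No link between the letters and the levels of the genes was tested. RefSeq start sites on GRCm38.p6 were held for 5 of the 10 genes, *Selp*, *Pf4*, *Gp9*, *Itga2b* and *Gp1bb*, and no entry was held for *Vwf*, *Itgb3*, *Clu*, *Fli1* or *Nfe2*. The 250 bases before the start were searched on both strands for AGGAAG, a core bound by ETS factors such as Fli1, for GATAA, bound by GATA factors, and for TGAGTCA, bound by NF-E2 and also by AP-1. AGGAAG was found before 4 of the 5 genes, all but *Gp1bb*, and in 29.5% of the 32851 promoters in the table. GATAA was found before *Gp9* alone of the 5 and in 22.6% of all promoters, and TGAGTCA before 0 of the 5 and in 4.46% of all promoters. The last 100 bases before the start are given below from 5′ to 3′ for *Pf4* (chr5:90772335-90772434), *Gp9* (chr6:87777970-87778069) and *Selp* (chr1:164115164-164115263), all on the plus strand and free of annotated exons, with the motifs in capitals. CTTCCT in capitals is AGGAAG read on the other strand.
Pf4: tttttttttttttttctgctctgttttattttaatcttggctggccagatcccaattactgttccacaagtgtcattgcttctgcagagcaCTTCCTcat
Gp9: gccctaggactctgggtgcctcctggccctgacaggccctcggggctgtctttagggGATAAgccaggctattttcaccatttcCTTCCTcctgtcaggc
Selp: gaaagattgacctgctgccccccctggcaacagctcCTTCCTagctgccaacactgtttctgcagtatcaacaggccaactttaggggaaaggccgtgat
The ETS core lay 9 to 4 bases before the start of *Pf4*, 16 to 11 bases before that of *Gp9* and 64 to 59 bases before that of *Selp*. A match is a description of the letters and not a bound site.

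The libraries differed in the level of *Maea*, in depth and in the levels of marker genes. Any effect of these differences on the genes described here was not tested. *Maea*, the targeted gene, was at 108, 116 and 123 CPM (the deposited read counts scaled to a common library total) in control replicates 1, 2 and 3 and at 76.9, 88.6 and 101 CPM in MaeaCsf1r-Cre replicates 1, 2 and 3. Every MaeaCsf1r-Cre library was lower than every control library, with a log2 fold change of -0.39 (standard error, SE, 0.13, limma adjusted p = 0.967). The smallest steps in the CPM values gave 32878000 to 39510000 in control and 44060000 to 60848000 reads in MaeaCsf1r-Cre libraries as the total behind the scaling. All 8 HSC markers (*Kit*, *Ly6a*, *Slamf1*, *Procr*, *Hlf*, *Mecom*, *Cd34* and *Ptprc*) were expressed in the 6 libraries, with a summed level of 1115 to 1766 CPM in control and 793 to 1307 CPM in MaeaCsf1r-Cre libraries. The 9 endothelial markers summed to 162, 146 and 308 CPM in control replicates 1, 2 and 3 and to 75.1, 125 and 390 CPM in MaeaCsf1r-Cre replicates 1, 2 and 3 (*Lyve1* at or near 0 in all 6). The 9 macrophage markers summed to 22.3 to 73.1 CPM in control and 5.65 to 45.8 CPM in MaeaCsf1r-Cre libraries, and the 5 stromal markers to at most 5.84 CPM. Of the macrophage markers, *C1qa*, *C1qb* and *C1qc* were at 1.21 to 8.98 CPM in control and at 0 to 0.474 CPM in MaeaCsf1r-Cre libraries. *Cd163* and *Csf1r* were also lower without overlap, whereas *Adgre1*, *Vcam1*, *Siglec1* and *Mrc1* overlapped between the groups.

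No clear difference between control and MaeaCsf1r-Cre HSCs was found for any of the 10 genes. On log2(CPM + 1), 8 of them had a lower and 2 a higher mean in MaeaCsf1r-Cre HSCs, against 60.9% of all 12955 genes tested that had a lower mean. The values of the groups overlapped for all 10 genes, whereas 1108 genes, 8.55% of all, had groups without overlap. With limma's moderated test 0 of the 10 had an adjusted p under 0.05 (Benjamini-Hochberg over all genes tested), as did 1 gene of 12955, or 0.00772%. At an unadjusted p under 0.05 there were again 0 of the 10, against 517 genes or 3.99% of those tested. Since same-numbered libraries deviated together across all genes, a second fit took the replicate number as a block, and again 0 of the 10 genes passed (1 of all genes, 0.00772%). At an unadjusted p under 0.05 the blocked fit held 2 of the 10, *Nfe2* and *Selp*, against 1805 genes or 13.9% of those tested. The median log2 fold change of the 10 genes was -0.18, and that over all genes tested was -0.06. In bulk RNA a smaller share of cells expressing a gene and less RNA per cell cannot be told apart.

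**Figure D1:**
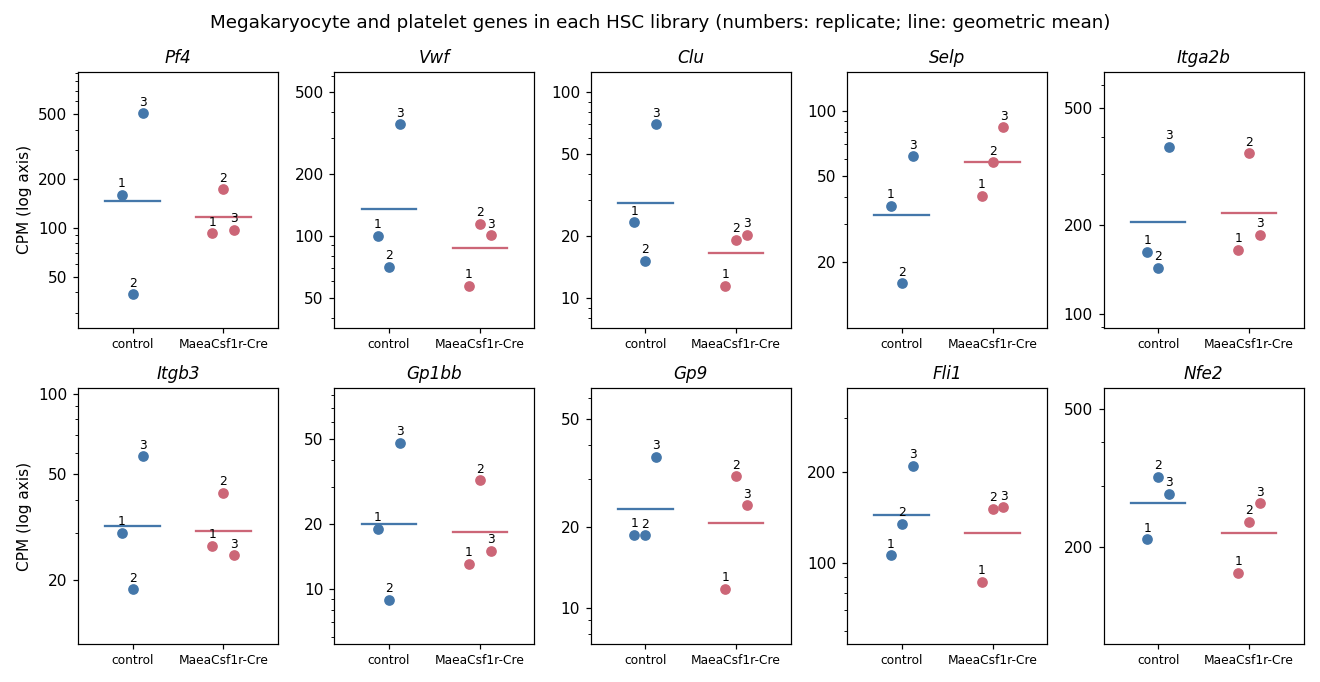
CPM on a log axis of the 10 genes in each library, control in blue and MaeaCsf1r-Cre in red, with the replicate number above each point and the geometric mean of each group as a line. Control replicate 3 was the highest control library for 9 of the 10 genes, and the groups overlap in every panel.

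*Pf4*, which codes for the alpha granule chemokine platelet factor 4 and lies on chromosome 5 (mm10, 90772435 to 90773383, plus strand), varied most between libraries among the 10 genes. It was at 160.2, 38.8 and 507 CPM in control replicates 1, 2 and 3 and at 92.2, 173 and 97.0 CPM in MaeaCsf1r-Cre replicates 1, 2 and 3. The highest control library was thus 13.1-fold above the lowest, while the 3 MaeaCsf1r-Cre libraries lay inside the range of the controls. The log2 fold change was -0.35 with a 95% interval of -2.17 to 1.48 (limma adjusted p = 0.974), so that a difference of 2-fold in either direction could not be told from no difference.

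*Vwf*, which codes for von Willebrand factor and lies on chromosome 6 (125546774 to 125686679, plus strand), was at 100.2, 70.5 and 349 CPM in control and at 57.3, 115 and 100.5 CPM in MaeaCsf1r-Cre replicates 1, 2 and 3. Control replicate 3 was again far above the other 5 libraries, which lay between 57.3 and 115 CPM and overlapped between the groups. The log2 fold change was -0.63 (SE 0.55, 95% interval -1.90 to 0.64, limma adjusted p = 0.967). *Clu*, which codes for the secreted chaperone clusterin and lies on chromosome 14 (65968483 to 65981547, plus strand), was at 23.4, 15.2 and 69.8 CPM in control and at 11.5, 19.2 and 20.3 CPM in MaeaCsf1r-Cre replicates. It had the same order of libraries within the controls as *Vwf*, with a log2 fold change of -0.79 (SE 0.50, 95% interval -1.95 to 0.37, adjusted p = 0.967).

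*Selp* codes for P-selectin, the adhesion receptor that activated platelets bring to their surface from alpha granules and that endothelial cells also make. It lies on chromosome 1 (164115264 to 164150026, plus strand) and was at 36.5, 16.0 and 61.6 CPM in control and at 40.4, 57.8 and 83.8 CPM in MaeaCsf1r-Cre replicates 1, 2 and 3. Alone among the 10 it was higher in the MaeaCsf1r-Cre library of all 3 same-numbered pairs, although the groups overlapped. The log2 fold change was 0.79 (SE 0.46, 95% interval -0.27 to 1.85, limma adjusted p = 0.967, or 0.297 when blocked by replicate). Its highest value was in MaeaCsf1r-Cre replicate 3, the library with the highest endothelial sum, where *Stab2* was at 66.2 CPM and *Cdh5* at 22.1 CPM, and the part of endothelial RNA in the level of *Selp* or *Vwf* was not tested. In control replicate 3, the highest control for *Selp* at 61.6 CPM, *Stab2* was at 41.3 CPM. In control replicate 2, the lowest library for *Selp* at 16.0 CPM, *Stab2* was at 0.202 CPM. In MaeaCsf1r-Cre replicate 2 *Selp* was at 57.8 CPM with *Stab2* at 0.362 and *Cdh5* at 0.566 CPM. *Esam*, also on the endothelial list, was at 98.5 CPM in control replicate 2 and at 83.7 CPM in MaeaCsf1r-Cre replicate 2. Over all 6 libraries *Esam* was at 42.1 to 116 CPM. Genes on the other strand overlap *Selp*, and the library kit as described gives no strand, so their reads could not be separated.

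The integrin subunits were the most alike of the receptor genes. *Itga2b*, the αIIb subunit (CD41), lies on chromosome 11 (102453297 to 102470122, minus strand) and was at 163, 144 and 369.9 CPM in control and at 165, 352 and 186 CPM in MaeaCsf1r-Cre replicates 1, 2 and 3. *Itgb3*, the β3 subunit, lies on the same chromosome (104608000 to 104670476, plus strand) and was at 30.1, 18.4 and 58.2 CPM in control and at 26.9, 42.5 and 24.7 CPM in MaeaCsf1r-Cre replicates. For both genes control replicate 3 and MaeaCsf1r-Cre replicate 2 were the highest of the 6 libraries, 1 in each group. The log2 fold change was 0.11 for *Itga2b* (SE 0.40, 95% interval -0.82 to 1.03) and -0.07 for *Itgb3* (SE 0.39, 95% interval -0.97 to 0.84), with adjusted p of 0.981 and 0.989 from limma. Within a library the ratio of *Itga2b* to *Itgb3* in CPM was 6.52 ± 1.20 in control and 7.32 ± 1.09 in MaeaCsf1r-Cre HSCs (SD, n = 3 each), and its highest and lowest values over the 6 libraries differed by 1.53-fold. Per kb of exon the mean ratio was 7.49. The ratio therefore varied less between libraries than either gene, whose highest and lowest values differed by 2.57-fold and 3.16-fold.

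*Gp9*, the GPIX subunit, lies on chromosome 6 (87778072 to 87779768, plus strand) and was at 18.7, 18.6 and 36.3 CPM in control and at 11.7, 30.8 and 24.0 CPM in MaeaCsf1r-Cre replicates 1, 2 and 3. *Gp1bb*, the GPIb β subunit, lies on chromosome 16 (18620317 to 18622403, minus strand) and was at 19.0, 8.90 and 47.9 CPM in control and at 13.1, 32.0 and 15.0 CPM in MaeaCsf1r-Cre replicates. Control replicate 3 and MaeaCsf1r-Cre replicate 2 were once more the highest of their groups. *Gp1bb* overlaps *Sept5* on the same strand, so the reads of these genes may be shared, and the level of *Gp1bb* is uncertain. The log2 fold change was -0.17 for *Gp9* (SE 0.38, 95% interval -1.05 to 0.71) and -0.12 for *Gp1bb* (SE 0.56, 95% interval -1.43 to 1.18), with adjusted p of 0.974 and 0.984 from limma. The ratio of *Gp9* to *Gp1bb* in CPM was 1.27 ± 0.710 in control and 1.15 ± 0.388 in MaeaCsf1r-Cre HSCs (SD, n = 3 each). Over the 6 libraries the mean was 1.21 in CPM and 2.87 per kb of exon. The ratio differed by 2.75-fold between the highest and lowest library, more than the ratio of the integrin subunits. The ratio of *Gp9* to *Gp1ba*, the GPIb α subunit, differed by 1.88-fold. It was 1.57 ± 0.0294 in control and 1.48 ± 0.452 in MaeaCsf1r-Cre HSCs (SD, n = 3 each).

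The transcription factors varied least. *Fli1*, on chromosome 9 (32422204 to 32542861, minus strand), was at 106, 135 and 209 CPM in control and at 87.0, 151 and 153 CPM in MaeaCsf1r-Cre replicates 1, 2 and 3. *Nfe2*, on chromosome 15 (103248212 to 103258403, minus strand), was at 211, 318 and 285 CPM in control and at 169, 237 and 267 CPM in MaeaCsf1r-Cre replicates. *Nfe2*, alone among the 10, was lower in the MaeaCsf1r-Cre library of all 3 same-numbered pairs, and it was the gene for which control replicate 2, not 3, was the highest control. Its log2 fold change was -0.28 (SE 0.21, 95% interval -0.77 to 0.21, limma adjusted p = 0.967, or 0.281 when blocked by replicate). For *Fli1* the log2 fold change was -0.19 (SE 0.29, 95% interval -0.87 to 0.49, adjusted p = 0.968). Several unspliced and antisense genes are annotated inside *Fli1*, whose reads could not be separated.

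Levels of different genes were compared as CPM per kb of annotated exon, averaged over the 6 libraries. *Pf4* was highest at 247 ± 234 (SD over 6 libraries), followed by *Nfe2* at 82.9 ± 17.9, *Itga2b* at 42.2 ± 18.8 and *Fli1* at 40.2 ± 12.2 CPM per kb. *Gp9* came next at 26.5 ± 10.2, then *Selp* at 11.2 ± 5.33 and *Gp1bb* at 10.9 ± 7.02 CPM per kb. The lowest were *Vwf* at 8.22 ± 6.74, *Clu* at 7.73 ± 6.28 and *Itgb3* at 5.67 ± 2.46 CPM per kb. The ranges over libraries overlapped for every pair of neighbours in this order. The exon length joins all annotated transcripts of a gene, which for *Vwf* came to 16064 bases, so the level of a gene with long alternative transcripts is understated.

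**Figure D2:**
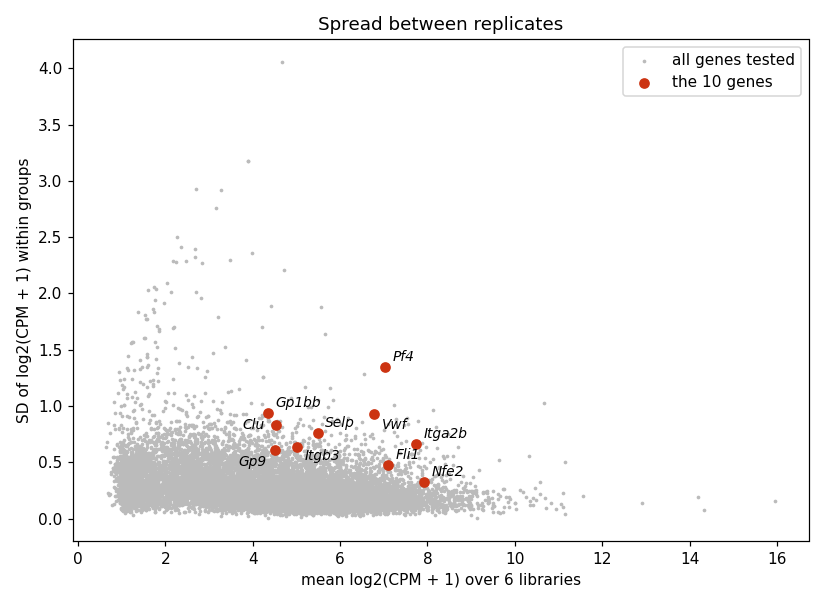
SD of log2(CPM + 1) within groups against the mean over 6 libraries, for the 12955 genes tested (grey) and the 10 genes (red). *Pf4* had an SD of 1.35, and 8 of the 10 genes lay above the 90th percentile of all genes tested.

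The spread between replicates of most of these genes was wide against that of all genes tested, which were not matched for level. The SD of log2(CPM + 1) within groups was 1.35 for *Pf4*, above 99.5% of the genes tested, 0.94 for *Gp1bb* and 0.93 for *Vwf*. It lay above the 90th percentile for 8 of the 10 genes, and below it for *Fli1* (0.48, the 86.2th percentile) and *Nfe2* (0.32, the 69.0th percentile). The median SD was 0.88 over the 10 genes among the control libraries and 0.51 among the MaeaCsf1r-Cre libraries, against 0.21 and 0.23 over all genes tested. The lowest value of any of the 10 genes in a library, *Gp1bb* in control replicate 2, stood for about 352 reads, which after amplification are not independent molecules.

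Most of the 10 genes shared the libraries in which they were high or low. Control replicate 3 was the highest control library for 9 of the 10, against 31.7% of all genes tested. Among the MaeaCsf1r-Cre libraries replicate 1 was the lowest for 9 of the 10, against 40.1% of all genes, and replicate 2 the highest for 6, against 19.5% of all genes. Centred on the mean of the 6 libraries, the median log2 value of the 10 genes was -0.16, -0.59 and 0.84 in control and -0.53, 0.40 and -0.11 in MaeaCsf1r-Cre replicates 1, 2 and 3. The same median over all genes tested stayed between -0.11 and 0.06 in the 6 libraries. The endothelial sum was highest in control replicate 3 and MaeaCsf1r-Cre replicate 3. In MaeaCsf1r-Cre replicate 2, the highest library of its group for 6 of the 10 genes, the sum was 125 CPM. Of this *Esam* made up 83.7, *Tek* 28.7, *Emcn* 5.07, *Plvap* 4.12 and *Kdr* 2.49 CPM. *Cdh5*, *Stab2*, *Flt1* and *Lyve1* were each under 1 CPM there. The part of endothelial RNA in these levels was not tested.

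**Figure D3:**
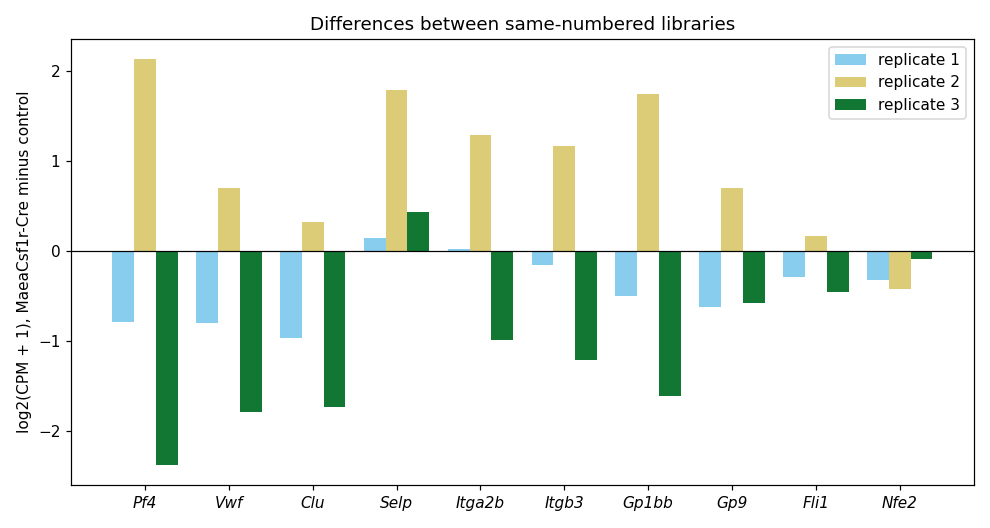
Difference in log2(CPM + 1), MaeaCsf1r-Cre minus control, between libraries of the same replicate number, for each of the 10 genes. Bars are above 0 for 2 of 10 genes in replicate 1, 9 of 10 in replicate 2 and 1 of 10 in replicate 3.

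The same-numbered pairs went different ways. The MaeaCsf1r-Cre library was above the control library for 2 of the 10 genes in pair 1, 9 in pair 2 and 1 in pair 3. Over all genes tested the shares were 46.9%, 31.8% and 51.4%. For *Pf4* the log2 differences were -0.79, 2.13 and -2.37 in pairs 1, 2 and 3, and for *Gp1bb* they were -0.50, 1.74 and -1.61. Across all genes the deviations of same-numbered libraries from their group means had Pearson's r of 0.627, 0.523 and 0.397, with genes not being independent replicates. For the 10 genes the deviations of the replicate 2 libraries had the same sign for 2 genes, and those of the replicate 1 and 3 libraries for 8 and 6 genes. Between libraries of different numbers this count ranged from 0 to 9. It was 9 for control replicate 2 with MaeaCsf1r-Cre replicate 1, and 9 for control replicate 3 with MaeaCsf1r-Cre replicate 2. By these counts the 10 genes did not follow the replicate number in pair 2, and the highest counts were across numbers. Genes that vary together are not independent observations. Deviations cancel out within a group, so the counts also depend on each other. Whether the replicate block suits these genes was not tested.

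**Figure D4:**
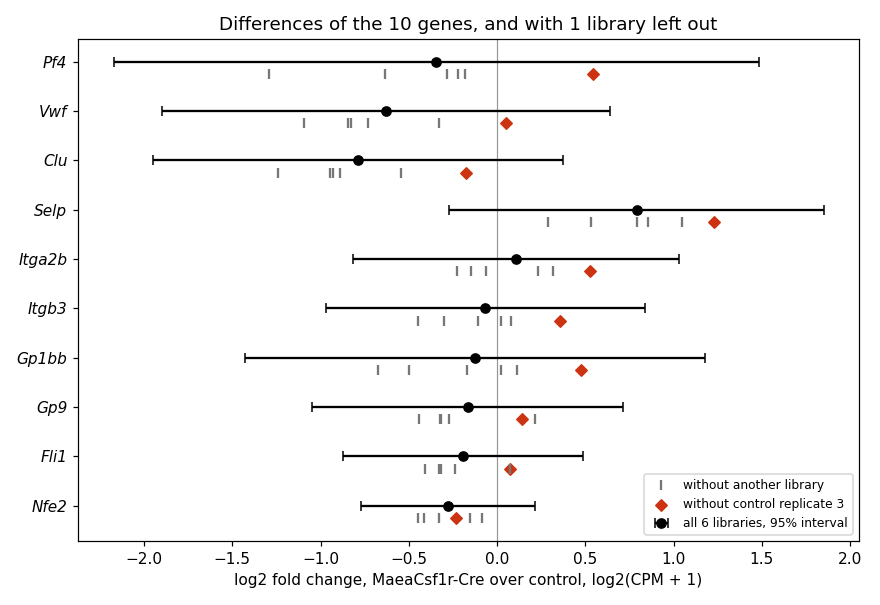
Log2 fold change of MaeaCsf1r-Cre over control HSCs for the 10 genes with its 95% interval (black), and the value with 1 library left out (grey bars, or a red diamond for control replicate 3). All intervals cross 0, and without control replicate 3 the values of 8 genes were above 0.

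Which group had the higher mean depended on single libraries for 7 of the 10 genes. Without control replicate 3 the log2 fold change was 0.54 for *Pf4*, 0.05 for *Vwf*, 0.36 for *Itgb3*, 0.47 for *Gp1bb*, 0.14 for *Gp9* and 0.07 for *Fli1*, all opposite in sign to the values from 6 libraries. The median over the 10 genes was then 0.25, with 2 lower rather than 8. Without MaeaCsf1r-Cre replicate 1 the sign also turned for *Itgb3* (0.02), *Gp1bb* (0.11), *Gp9* (0.21) and *Fli1* (0.07), and the median was 0.05. Without MaeaCsf1r-Cre replicate 3 it turned for *Itgb3* (0.08) and *Gp1bb* (0.02). *Itga2b* turned to -0.06, -0.15 and -0.23 without control replicate 1, control replicate 2 and MaeaCsf1r-Cre replicate 2. *Selp* stayed higher (0.29 to 1.23), and *Clu* (-1.24 to -0.18) and *Nfe2* (-0.45 to -0.09) stayed lower, whichever library was left out. In each of these fits 0 of the 10 genes had an adjusted p under 0.05.

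Genes with the most similar course over the 6 libraries were sought for the 3 of the 10 genes with the largest SD of log2(CPM + 1) over the 6 libraries, by the root mean square difference of centred log2 values. *Clu* was the nearest of all genes tested to *Vwf* (0.14), followed by *Sdpr*, a caveolar protein gene (0.15), and *Clu* in turn had *Vwf* and *Lhfp* (0.17) as its nearest. For *Pf4* the nearest were *Serpine2*, which codes for protease nexin-1 (0.39), and *Gp1bb* (0.43). Both *Serpine2* and *Sdpr* also stand in the wider list described next. *Serpine2* was at 20.2, 6.39 and 60.0 CPM in control and 15.9, 30.3 and 7.67 CPM in MaeaCsf1r-Cre replicates 1, 2 and 3. *Sdpr* was at 34.6, 26.4 and 112 CPM in control and at 21.8, 46.0 and 44.1 CPM in MaeaCsf1r-Cre replicates.

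Other genes of the lineage were read from a list of 66 genes in 6 roles, of which 59 were expressed enough to be tested. In it 0 genes had an adjusted p under 0.05, with or without the replicate block, and 44 of the 59 (74.6%) had a lower mean in MaeaCsf1r-Cre HSCs, against 60.9% of all genes tested. Their median log2 fold change was -0.18, against -0.06 over all genes, and after correction for gene length it was -0.064, against 0.034. Without MaeaCsf1r-Cre replicate 1 it was -0.017, and without control replicate 3 it was -0.071. The groups did not overlap for 2 of the 59, *Clec1b* and *Tubb1*, both lower, against 1108 of all 12955 genes tested (8.55%). *Clec1b* reached the CPM of 1 set by the filter in the control libraries alone, and *Tubb1* in these and in MaeaCsf1r-Cre replicate 3. The filter thus fixed the direction and lack of overlap of *Clec1b*, and favoured them for *Tubb1*. At an unadjusted p under 0.05 there was 1 gene of the 59, against 517 of all 12955 genes (3.99%). With the block there were 13 of the 59, a larger share than the 1805 of all 12955 genes (13.9%). Control replicate 3 was the highest control library for 42 of the 59.

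**Figure D5:**
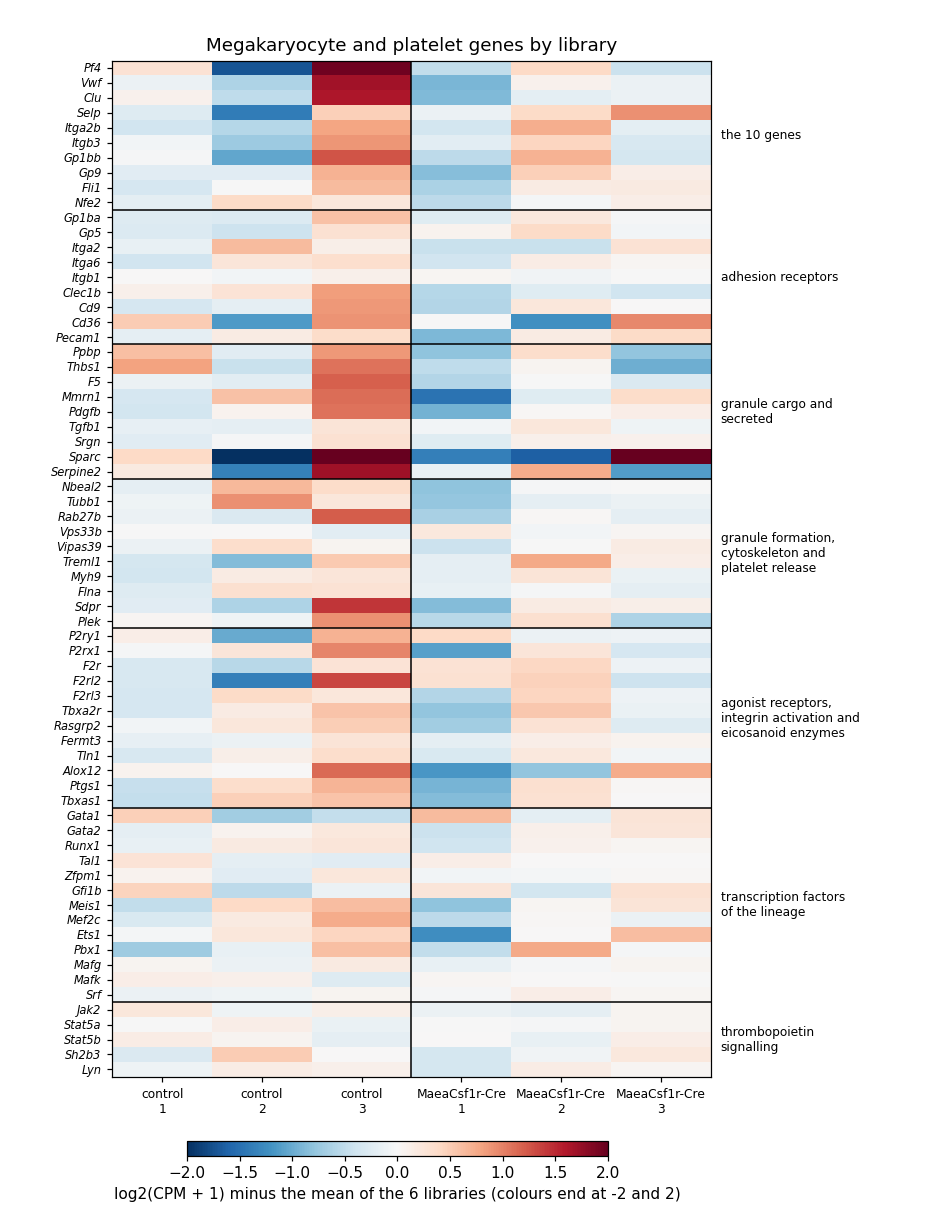
Log2(CPM + 1) minus the mean of the 6 libraries for the 10 genes and the tested genes of the wider list by role, 1 of which is not shown, with libraries as columns and colours that end at -2 and 2. Control replicate 3 was the highest control library for 42 of the 59 tested genes of the wider list.

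Of the 9 adhesion receptor genes tested 8 had a lower mean in MaeaCsf1r-Cre HSCs. *Clec1b*, the podoplanin receptor CLEC-2, was at 1.18, 1.46 and 2.66 CPM in control and at 0.377, 0.725 and 0.541 CPM in MaeaCsf1r-Cre replicates 1, 2 and 3, without overlap (log2 fold change -0.81, standard error 0.27, limma adjusted p = 0.967). With a pseudocount of 0.1 in place of 1 its log2 fold change was -1.48. *Clec1b* passed the filter through the control libraries alone. *Gp5*, a further subunit of the GPIb-IX-V complex, averaged 53.3 ± 14.9 CPM in control and 63.1 ± 10.2 CPM in MaeaCsf1r-Cre HSCs (SD, n = 3 each), the single one of the 9 with a higher mean. *Itga2*, the collagen-binding α2 integrin subunit, was at 2.26 ± 0.923 and 1.49 ± 0.781 CPM, and *Itgb1*, its β1 partner, at 224 ± 12.1 and 220.0 ± 8.74 CPM. For these 3 genes the values of the groups overlapped. *Gp6*, the platelet collagen receptor, was listed at 0 in 5 libraries and at 0.480 CPM in the other, control replicate 2.

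Of the 9 granule cargo genes tested 8 had a lower mean and 0 were called, with a median log2 fold change of -0.53. For all 9 the highest control was replicate 3, and in pair 2 the MaeaCsf1r-Cre library was the higher for 7 of them, with median differences of -0.59, 0.41 and -0.95 in pairs 1, 2 and 3. Differences between roles were not tested. *Mmrn1*, which codes for multimerin 1, an alpha granule protein that carries factor V, was at 107, 203 and 294 CPM in control and at 47.9, 114 and 175 CPM in MaeaCsf1r-Cre replicates 1, 2 and 3. Each MaeaCsf1r-Cre library was lower than its same-numbered control although the groups overlapped, with a log2 fold change of -0.91 (SE 0.50, limma adjusted p = 0.967, or 0.0619 when blocked by replicate, the smallest of the list). *Thbs1*, thrombospondin 1, was at 7.79 ± 4.12 and 3.30 ± 1.53 CPM, and *Ppbp*, the precursor of the platelet basic protein chemokines, at 5.98 ± 2.47 and 3.04 ± 2.02 CPM, in control and MaeaCsf1r-Cre HSCs (SD, n = 3 each). *Srgn*, the granule proteoglycan serglycin, was at 487 ± 92.2 and 474 ± 61.7 CPM. The last 3 genes overlapped between the groups.

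Of the 10 tested genes for granule formation, the cytoskeleton and platelet release 8 had a lower mean and the median was -0.31. *Tubb1*, the β1 tubulin of the platelet marginal band, was at 1.06, 3.10 and 1.55 CPM in control and at 0.279, 0.928 and 1.01 CPM in MaeaCsf1r-Cre replicates 1, 2 and 3 (log2 fold change -0.71, standard error 0.33, limma adjusted p = 0.967). With a pseudocount of 0.1 in place of 1 its log2 fold change was -1.27. *Nbeal2*, needed for alpha granules, averaged 79.1 ± 22.0 CPM in control and 53.8 ± 15.5 CPM in MaeaCsf1r-Cre HSCs (SD, n = 3 each), lower in 3 of 3 same-numbered pairs (limma adjusted p = 0.967, or 0.175 when blocked by replicate). *Plek*, pleckstrin, was at 147 ± 60.6 and 98.4 ± 38.6 CPM, and *Flna*, filamin A, at 410.0 ± 85.4 and 345 ± 20.9 CPM, with overlap between the groups. The markers of mature platelets and late megakaryocytes were thus present at unequal levels, with *Tubb1* and *Clec1b* under 4 CPM in every library and *Gp5* above 42 CPM in every library. Between these, *Treml1* was at 5.58 to 19.3 CPM and *Gp1ba* at 11.9 to 22.6 CPM. The 7 markers of this kind summed to 76.3, 68.3 and 121 CPM in control and to 84.1, 118 and 85.0 CPM in MaeaCsf1r-Cre replicates 1, 2 and 3.

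Among the 12 tested genes for agonist receptors, integrin activation and eicosanoid enzymes 8 had a lower mean and the median was -0.22. *P2rx1*, an ATP-gated channel of platelets, averaged 34.4 ± 13.4 CPM in control and 19.9 ± 9.07 CPM in MaeaCsf1r-Cre HSCs (SD, n = 3 each), and *Rasgrp2*, an activator of Rap1, 41.2 ± 7.72 and 30.9 ± 10.9 CPM. *F2r*, the thrombin receptor PAR1, had a higher mean, at 130.5 ± 41.0 and 170 ± 30.4 CPM. *Fermt3*, kindlin-3, was at 497 ± 82.0 and 499 ± 57.7 CPM, a difference smaller than either SD. Control replicate 3 was the highest control for 11 of these 12 genes and MaeaCsf1r-Cre replicate 2 the highest of its group for 10.

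The 13 transcription factors of the wider list were split, with 6 higher and 7 lower and a median of -0.04. *Gata1*, the GATA factor of the erythroid and megakaryocyte lineages, was at 191, 84.2 and 98.8 CPM in control and at 213, 120.0 and 165 CPM in MaeaCsf1r-Cre replicates 1, 2 and 3, higher in 3 of 3 same-numbered pairs (log2 fold change 0.46, standard error 0.32, limma adjusted p = 0.967, or 0.232 when blocked by replicate). *Mef2c* averaged 123 ± 45.3 CPM in control and 89.2 ± 16.6 CPM in MaeaCsf1r-Cre HSCs (SD, n = 3 each), *Runx1* 62.2 ± 9.01 and 54.8 ± 9.80 CPM, and *Zfpm1*, the GATA1 partner FOG1, 324 ± 50.7 and 312 ± 8.34 CPM. The groups overlapped for all 13.

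Of the thrombopoietin signalling genes, *Jak2*, a cytokine receptor kinase, averaged 96.0 ± 10.2 CPM in control and 85.4 ± 7.62 CPM in MaeaCsf1r-Cre HSCs, and *Lyn*, a Src family kinase, 61.9 ± 5.15 and 57.6 ± 10.1 CPM (SD, n = 3 each). *Thpo*, which codes for thrombopoietin and is made mainly in the liver, was listed at 0 in all 6 libraries.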

How the data were processed

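RNA of sorted HSCs (3 control and 3 MaeaCsf1r-Cre libraries) was amplified with SMART-Seq v4 and tagged with Nextera XT. The authors trimmed the reads (Trim Galore, per the submitters' processing notes), aligned them to mm10 with STAR 2.5.3a, counted them on Ensembl transcripts and scaled the counts with Partek Flow. Each library has 1 deposited CPM column, to which the authors added 0.0001, subtracted here. The listed genes held 75.2 to 80.2% of the scaled total. Of the low values 75.2 to 77.2% lay within 0.05 of a whole read, so counts were not recovered and no count test was used. A signal of 3 reads was 0.0493 to 0.0912 CPM, which covers counting error only. The table held 27 symbols that read as dates.

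The test took the 12955 genes whose CPM reached 1 in 3 or more libraries, on log2(CPM + 1), MaeaCsf1r-Cre against control, with limma 3.58.1 in R 4.3.3 (linear model, mean-variance trend, two-sided, Benjamini-Hochberg adjustment, threshold 0.05). A fold change on this scale understates that of low genes. Replicates pool mice, and are numbered in the labels. As same-numbered libraries deviated together (r of 0.397 to 0.627, against -0.459 to -0.0538 for other pairs), they were taken as pairs. A fit blocked by that number was run beside the main one. Its adjusted p is printed for *Selp*, *Nfe2*, *Mmrn1*, *Nbeal2* and *Gata1* only. The lowest among the 10 genes was 0.281 (limma with the block). Deviations from a group mean cancel out within the group, so positive values for some pairs force negative ones for others. The pairing was read from these same data, and no label states it. The members, lists and tests were chosen with earlier results of these data known.

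Lengths and positions are from GENCODE vM21 (GRCm38) and promoters from RefSeq (GRCm38.p6). Named genes of the wider list were the 3 with the smallest p and the 1 with the highest CPM of each role. Results for 1 gene of that list are not reported here. The alternatives were the replicate block, leaving out each library, quantile normalization, scaling by median ratios, a fit without trend, a pseudocount of 0.1, all genes or those reaching a CPM of 10, and length correction by loess (span 0.5, with and without the block). Reading them for named genes outside the 10 was added after seeing the data. In simulated data for this comparison, 187 of 200 well expressed genes changed 4-fold were recovered among 12955, with 7 false calls. Where none was changed, 0 calls were made. Recovery was not tested for the 10 genes, whose median SD within groups was 0.71, against 0.24 over all genes tested. Figures used Python 3.11.15 and matplotlib 3.10.9.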

Additional observations from a re-analysis of the deposited data

How the results depend on the processing

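Under every alternative 0 of the 10 genes and 0 genes of the wider list had an adjusted p under 0.05. The count over all genes tested was 1, became 0 with a filter at a CPM of 10 (302 at an unadjusted p under 0.05) and 12 with length correction and the replicate block together, and ranged from 0 to 3 with 1 library left out, being 0 without control replicate 2 (266 unadjusted) or control replicate 3 (331 unadjusted) and 3 without MaeaCsf1r-Cre replicate 3. The replicate block changed no call, and its count was 1.

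With 1 library left out the log2 fold change ranged from -1.29 to 0.54 for *Pf4*, -1.09 to 0.051 for *Vwf*, -0.23 to 0.53 for *Itga2b*, -0.45 to 0.36 for *Itgb3*, -0.68 to 0.47 for *Gp1bb*, -0.44 to 0.21 for *Gp9* and -0.41 to 0.075 for *Fli1*. It ranged from -0.066 to 0.012 for *Itgb1*, -0.15 to 0.11 for *Srgn*, -0.065 to 0.14 for *Fermt3*, -0.17 to 0.058 for *Zfpm1* and -0.21 to 0.034 for *Lyn*. The median of the 10 genes ranged from -0.39 to 0.25 and that of the wider list from -0.31 to -0.02. *Itgb3* also turned to 0.0080 with quantile normalization and to 0.055 with length correction, with or without the block. With median ratios *Itgb1* was 0.034, *Srgn* 0.033 and *Zfpm1* 0.020, and with length correction, with or without the block, 0.073, 0.023 and 0.044. *Fermt3* was -0.030 with quantile normalization. The ratio of *Gp9* to *Gp1bb*, 1.21 in CPM over the 6 libraries, was 2.87 per kb. The cause of the turns was not tested. With 3 libraries a group and this spread, differences of 2-fold lay inside the 95% intervals of *Pf4*, *Vwf*, *Itga2b*, *Gp1bb*, *Gp9*, *Selp* and *Clu*.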

Other observations

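The 9 erythroid markers summed to 3895, 1405 and 855 CPM in control and to 4152, 1648 and 1890 CPM in MaeaCsf1r-Cre replicates 1, 2 and 3. Most of this sum was *Car1*, carbonic anhydrase 1, at 3356, 1210 and 617 CPM in control and at 3645, 1402 and 1486 CPM in MaeaCsf1r-Cre replicates. Control replicate 3, the highest control for 9 of the 10 platelet genes, was the lowest control for *Car1* and *Klf1*, while control replicate 2 was the lowest for the other 7 markers. The 4 globin genes were highest in replicate 3 among the MaeaCsf1r-Cre libraries, with *Hbb-bt* at 16.2, 20.6 and 40.6 CPM there and at 38.8, 9.91 and 33.9 CPM in control. *Klf1*, the erythroid Krüppel-like factor, was at 319, 119 and 94.0 CPM in control and at 331, 122 and 202 CPM in MaeaCsf1r-Cre replicates. *Gata1*, which serves both lineages, was highest in replicate 1 of each group, with 191 CPM in control replicate 1 and 213 CPM in MaeaCsf1r-Cre replicate 1. The ratio of *Pf4* to *Itga2b* in CPM was 0.983, 0.270 and 1.37 in control and 0.558, 0.491 and 0.522 in MaeaCsf1r-Cre replicates 1, 2 and 3, so that the 3 MaeaCsf1r-Cre libraries lay close together and inside the range of the controls. This ratio was chosen after its values were seen and was not tested.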
